A study of Mustela putorius furo with 7 samples.

Results

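Open chromatin was examined in 305 windows of 100 kb in which accessible regions opened together in cultures lacking CFTR. The ferret genome was divided into fixed windows of 100 kb along each scaffold, and a window was taken where it held at least 5 accessible regions whose median change between genotypes was 1 or more on the log2 scale. The change of a region was the mean log2(signal + 1) of the CFTR knockout libraries minus that of the wild-type libraries. The 305 windows made up 3.66% of the 8338 windows with at least 5 regions, and they held 2018 of the 95129 regions, 2.12% of all, on 161 of 1895 scaffolds. A further 13769 windows held a region but fewer than 5 and could not be chosen. The members were chosen by the measured signal of both genotypes, so every difference between genotypes inside them is given as a description, and calls from the fit across all regions are counted there without being evidence for the windows.

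The assay was bulk ATAC-seq, where a transposase cuts and tags DNA that is free of nucleosomes. The samples were polarized cultures of pancreatic ductal epithelium (PDE) from ferrets (Mustela putorius furo) aged 1 to 3 days, either wild type (WT, 4 libraries) or homozygous for a CFTR knockout (CF, 3 libraries). About 50000 cells of each culture were taken after 10 passages and then 14 days at an air-liquid interface. The labels give each library its own donor number within the genotype, whereas the study's methods name as many WT as CF donors, and it is therefore unclear if the WT libraries came from 4 different animals. The knockout line was founded by nuclear transfer from gene-targeted fibroblasts. The cultures were primary cells passaged to remove other cell types, and no gene annotation of the assembly was used here, so the ductal identity of the cultures was not checked against marker genes.

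CFTR is a chloride and bicarbonate channel of the apical membrane, and in the pancreas it drives the secretion of fluid by duct cells. Accessible regions are mostly promoters and enhancers, where bound proteins displace nucleosomes. Such regions can change singly, at an element with its own factors, or in groups along a stretch of chromosome, as in clusters of enhancers or in a domain of chromatin that is unpacked as a whole.

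CF libraries had more reads in regions than WT libraries, from 8469877 to 11047724 against 3226534 to 8172005. The matrix holds no reads outside the regions, so depth here means reads in regions and total sequencing depth is not known. Depth in this sense and genotype cannot be told apart across these libraries. The smallest signal of each library was taken as 1 read, so no value can lie below it. A region without reads, if there was one, cannot be told apart from a region with 1 read. In the shallowest library, WT3, 1 read was worth a signal of 3.08, but 0.562 to 1.68 in the others. The shallowest WT column of the matrix was WT3, whereas the shortest WT peak list was WT2, and the numbers of columns and lists were not taken to name the same library, so signals are named by matrix column and peaks by peak list, and peaks were compared by genotype only. The median change of all 95129 regions was 0.0334.

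Regions of the opening windows were at an ordinary level in CF libraries and at a low level in WT libraries. Their median log2(signal + 1) was 4.94, 4.91 and 4.89 in CF1, CF2 and CF3, and 3.83, 3.84, 3.35 and 3.85 in WT1 to WT4. Every CF library stood above every WT library, and WT3 stood below the other WT libraries. The median of all regions lay between 4.72 and 4.88 in each of the 7 libraries, so the opening windows were 0.177 ± 0.0287 (SD, n = 3) above it in CF and 1.12 ± 0.248 (SD, n = 4) below it in WT. The members took 1.51% ± 0.0529 of a CF library's reads in regions and 0.726% ± 0.104 of a WT library's.

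Much of the WT signal in these windows was near the smallest value the matrix can hold. The median member had 38, 39 and 51 reads in CF1 to CF3, and 9, 15, 3 and 8 reads in WT1 to WT4. A single read was listed for 14.9%, 10.2%, 36.9% and 19.9% of members in WT1 to WT4, against at most 0.297% in a CF library. Over all regions these shares were 6.51%, 3.36%, 17.6% and 8.44% in the same WT libraries, so single reads were more frequent in members than in all regions in each WT library. In 74 windows (24.3%) the median of at least 1 WT library was a single read, compared with 2.4% of the windows that neither opened nor closed. WT3 was the lowest WT library in 133 of the 305 windows. When all libraries were thinned to the depth of WT3 and scaled by TMM (trimmed mean of M-values), 292 windows passed the rule and 233 of the 305 were among them, whereas TMM scaling without thinning gave 340 windows that included all 305. The part of depth in the remaining difference was not tested.

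The spread between WT libraries was also wider in these windows than elsewhere. The SD of a window's level over the 4 WT libraries had a median of 0.599, against 0.38 in windows that neither opened nor closed, while the SD over the 3 CF libraries was 0.219 in the opening windows and 0.224 in the others. In closing windows, those with a median of −1 or below, it was 0.377 over WT and 0.302 over CF libraries. There it was CF, the genotype with the lower level, that spread wider than in the others. In 218 opening windows (71.5%) the level of every CF library was above that of every WT library, compared with 10.3% of all windows of at least 5 regions. The rule used this contrast, so the count describes the choice. In the remaining windows at least 1 WT library reached the level of a CF library.

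The window with the largest median change, 3.23, lay on scaffold GL896951 between 3700001 and 3800000 and held 7 regions over 69.5 kb. Its level was 5.86, 5.87 and 5.37 in CF1 to CF3, and 2.43, 1.47, 2.84 and 1.42 in WT1 to WT4. No WT library came within reach of a CF library there. The region with the largest change, 3725031 to 3725526, had signals of 57.2, 78.3 and 29.8 in CF and 2.94, 0.888, 3.08 and 5.03 in WT, which stood for 1 to 3 reads in each WT library. All 3 CF peak lists and no WT peak list held a peak on it. The region of smallest change in the same window, 3776895 to 3777612, had signals of 79.2, 88.0 and 40.5 in CF and 10.3, 50.6, 89.2 and 40.2 in WT. There the genotypes overlapped, and 3 of 4 WT lists held a peak. An element accessible in both genotypes thus lay in the same window as regions with peaks in CF lists alone.

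**Figure D1:**
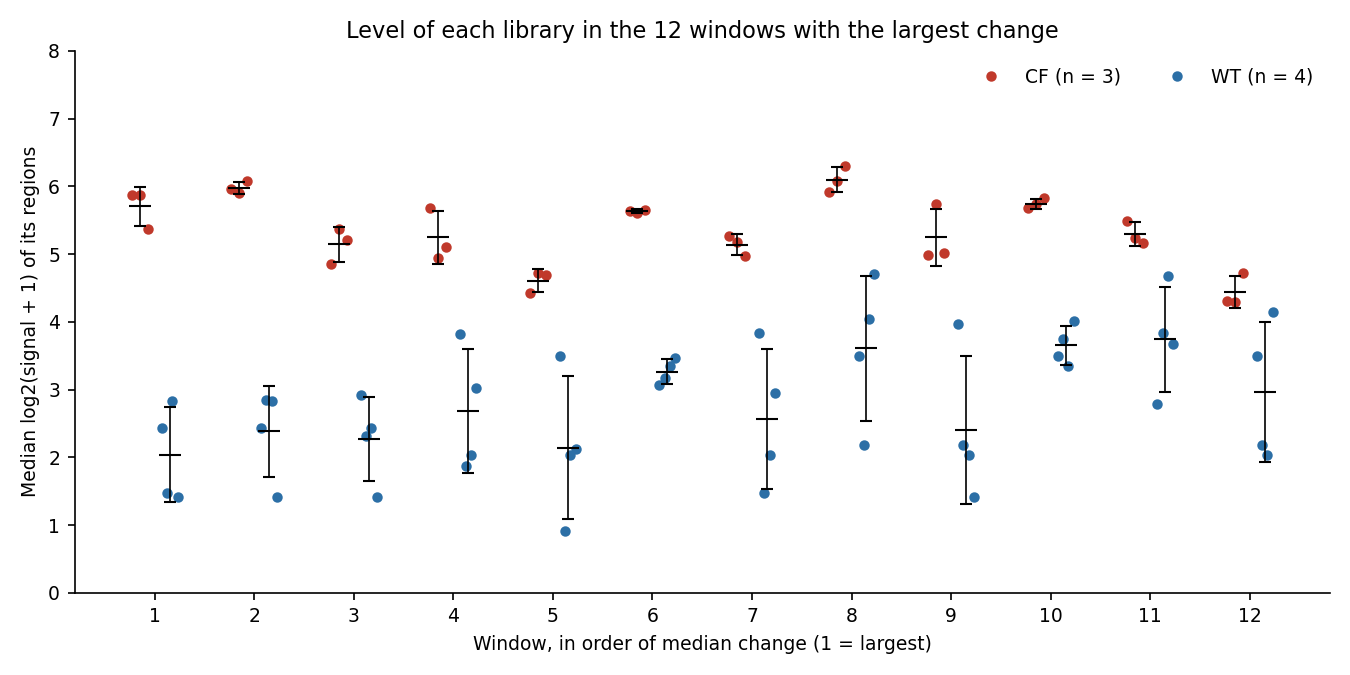
Level of each library, as the median log2(signal + 1) of the window's regions, in the 12 windows with the largest median change, in descending order. Points are libraries, and black bars give mean ± SD of the 3 CF and of the 4 WT libraries. All CF points stand above all WT points in each of the 12 windows, and the SD is larger in WT than in CF in each of them.

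The largest change of any member region was 5.62. This region lay on scaffold GL897166 at 1703343 to 1704468 and was 1126 bp wide. Its signals were 225.8, 361.8 and 265.7 in CF1 to CF3 and 7.34, 10.7, 3.08 and 1.68 in WT1 to WT4, with peaks in all CF lists and no WT list. All CF libraries were far above all WT libraries. In the same window the region at 1780575 to 1781542 changed by 0.0236, with signals of 63.5, 43.3 and 57.9 in CF and 58.7, 27.5, 80.0 and 62.0 in WT, and all 7 lists held a peak on it. The member with the largest change and an element with overlapping genotypes and peaks in every list lay within 1 window.

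The other windows among the 12 with the largest changes also mixed regions of large and small change. Not all of them held an element with peaks in most WT lists. In the windows of GL897152 at 1200001 and GL897035 at 5200001 no region had a peak in more than 1 WT list. On scaffold GL897026 the window at 4600001 had 9 regions with changes from 0.52 to 4.25, and its libraries were the closest to each other among the 12 windows, at 5.63 ± 0.0247 (SD, n = 3) in CF and 3.26 ± 0.183 (SD, n = 4) in WT. On scaffold GL897152 the window at 1200001 had 5 of 6 regions with peaks in all CF lists and no WT list. On scaffold GL896955 the region at 4129890 to 4130238 was listed at 1 read in all 4 WT libraries and had signals of 30.6, 63.4 and 31.5 in CF. The mean of these CF signals was 7.84-fold a floor set at the signal of 3 reads averaged over the WT libraries. In WT3 alone 3 reads stood for a signal of 9.23, so the ratio to that library is smaller. On scaffold GL896910 the region at 10664936 to 10665453 was likewise at 1 read in all WT libraries. Its signals of 23.5, 28.4 and 21.9 in CF had a mean that was 4.61-fold the same averaged floor. The windows on GL896914, GL897003 and GL896901, each held 1 region that was lower in CF, with changes of −0.79, −0.28 and −0.21.

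The 6 windows with the most regions had 12 to 16 of them and median changes from 1.055 to 1.87. The most regions, 16, lay in the window of GL897058 at 3000001, where 10 regions changed by 1 or more and 4 were below 0. Its level was 5.74, 5.76 and 5.48 in CF and 4.64, 4.76, 4.58 and 4.91 in WT. CF was higher in every library, and both genotypes varied little. The region at 3089363 to 3090285 in it had signals of 77.6, 81.3 and 66.3 in CF and 140.9, 106.6, 135.3 and 127.4 in WT, lower in all CF libraries, with peaks in all 7 lists. In the window of GL896913 at 7200001, with 14 regions, the region at 7271178 to 7271487 had signals of 2.35, 15.7 and 11.8 in CF and 41.1, 34.6, 64.6 and 53.6 in WT. It changed by −2.43, had a peak in all WT lists and in no CF list, and lay among 11 regions that were higher in CF. In the window of GL896989 at 5700001, with 12 regions, the levels of 4.87, 4.91 and 4.61 in CF overlapped those of 3.66, 3.02, 4.67 and 4.51 in WT. In the window of GL896991 at 300001 all 15 regions were higher in CF, by 0.12 to 3.18. Of these 6 windows, 3 fell below the threshold of 1 under an alternative: GL896991 at 300001 had a median of 0.786 without WT1, GL896903 at 23700001 had 0.908 without WT1, and GL896913 at 7200001 had 0.862 without WT3, 0.967 without CF2 and 0.969 with a pseudocount of 4.

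Across the 2018 members, 1717 (85.1%) were higher in CF, 1259 (62.4%) by 1 or more, 301 were lower and 58 were lower by 1 or more. By the fit across all regions (limma, adjusted p under 0.05 and log2 change past 1), 530 members (26.3%) were called more accessible in CF, against 4.31% of all regions, and 27 (1.34%) were called less accessible, against 6.26% of all regions. In 924 members (45.8%) every CF library was above every WT library, against 11.5% of all regions. These counts describe the same contrast that chose the windows. With all CF libraries kept, leaving out 1 WT library gave 419 to 620 members called more accessible. Over all 95129 regions the same fits called 3195 to 5094. Leaving out 1 CF library lowered the count to 230 without CF1, 218 without CF2 and 219 without CF3, while over all regions the count went from 4102 to 1472, 1365 and 1392.

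Few windows opened in every region. All regions were higher in CF in 107 windows (35.1%), against 2.55% of windows that neither opened nor closed. All regions changed by 1 or more in 6 windows (1.97%). At least 1 region of opposite sign was present in 198 windows (64.9%), and a region lower in CF by 1 or more in 57. No region was called more accessible in CF in 54 windows (17.7%), against 76.0% of windows that neither opened nor closed. At least 3 regions were called in 75 windows (24.6%), against 0.94%, and all regions in 0 windows. These counts describe the contrast that chose the windows, and a median of 1 or more required only that the upper part of the regions moved. Within a window the change had a median SD of 1.055 over its regions and a median range of 2.80, compared with a median SD of 0.839 in windows that neither opened nor closed.

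**Figure D2:**
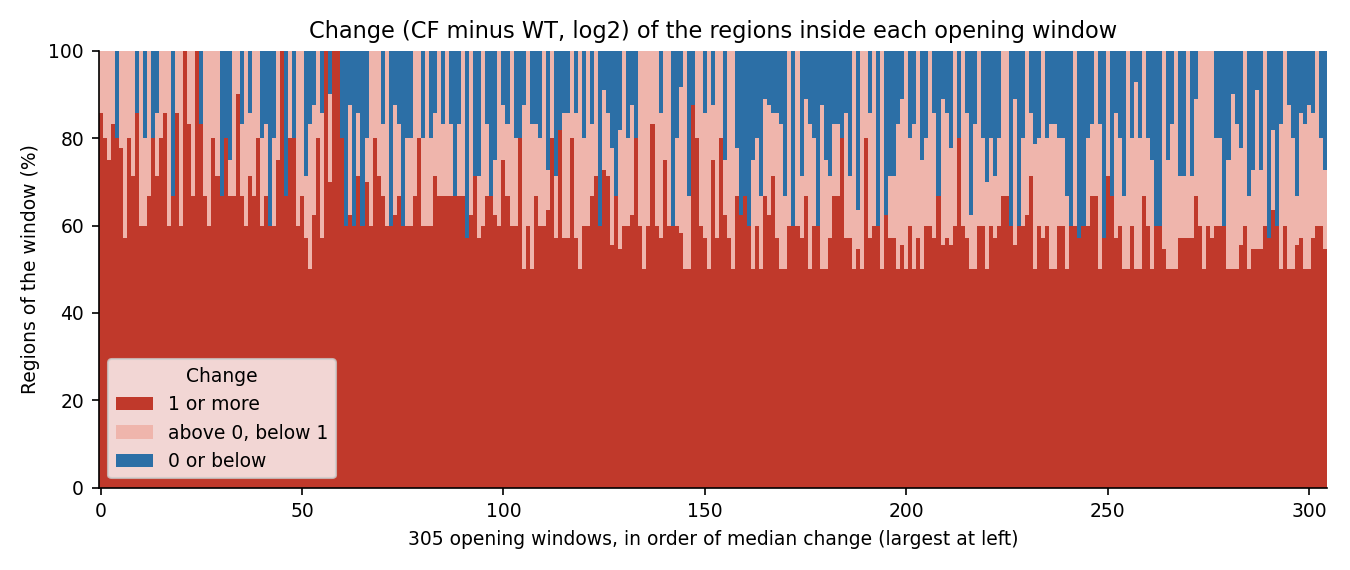
Share of the regions of each opening window, in percent, with a change of 1 or more (dark red), above 0 and below 1 (pale red) and 0 or below (blue). The 305 windows are in descending order of median change, and all bars reach at least 50 in dark red because of the rule, while 107 windows have no blue part.

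The change of members was smaller where more WT lists held a peak. Of the 751 members (37.2%) with no WT peak, 713 changed by 1 or more, and the median change was 1.94. Of the 265 members with a peak in all 4 WT lists, 36 changed by 1 or more, and the median change was 0.0369. The medians between these were 1.21, 0.831 and 0.586 for members with a peak in 1, 2 and 3 WT lists. In windows that neither opened nor closed the medians ran from 1.31 with no WT peak to −0.235 with 4, so the order was alike and the values were lower in each class. Peaks and signal come from the same libraries, so neither is independent of the other.

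**Figure D3:**
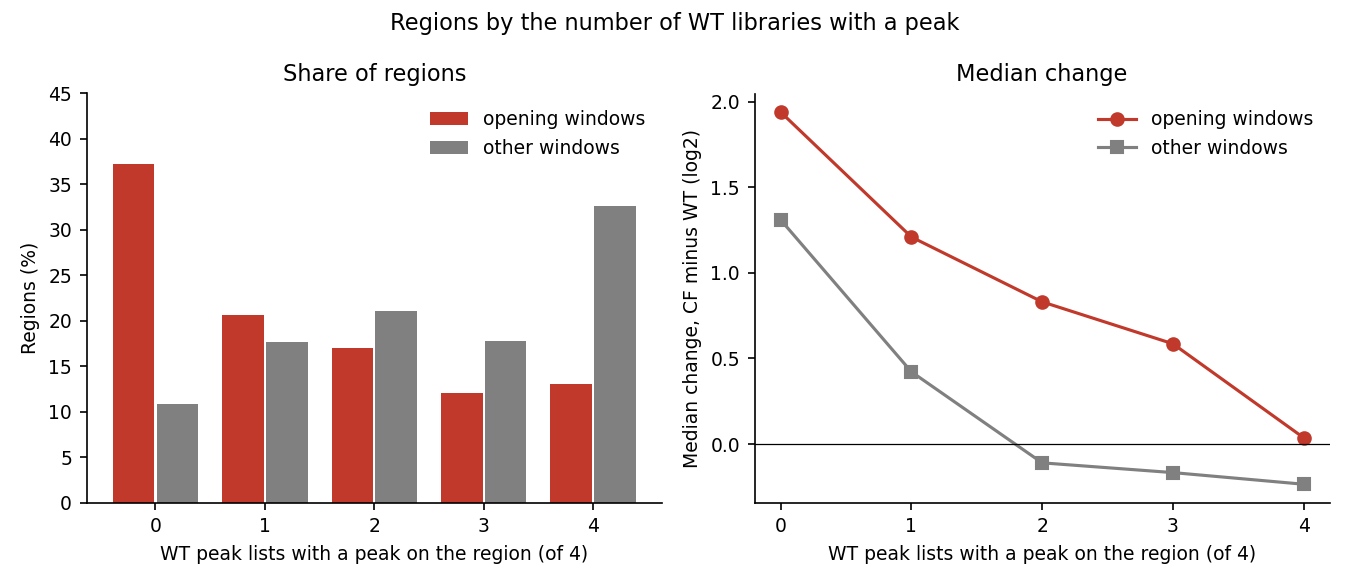
Regions by the number of WT peak lists, of 4, that hold a peak on them, in opening windows (red) and in windows that neither opened nor closed (grey). The left panel gives the share of regions in percent and the right panel the median change in log2 units. In opening windows 37.2% of regions have no WT peak and their median change is 1.94, and at 4 WT lists the median is 0.0369.

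Peaks in all 3 CF lists and in no WT list lay on 353 members (17.5%, against 4.48% of all regions), and peaks in all 7 lists on 244 members (12.1%, against 26.4%). A peak was present on 84.7%, 85.0% and 74.7% of members in the CF1 to CF3 lists and on 40.8%, 18.1%, 50.3% and 34.0% in the WT1 to WT4 lists. The CF shares were all above the WT shares. Over all regions the shares were 77.2%, 74.9% and 64.9% in the CF lists and 62.8%, 39.6%, 74.5% and 55.8% in the WT lists, and there the genotypes overlapped. The CF lists held 79014 to 104397 peaks and the WT lists 48417 to 89157, and these ranges overlap. With each list cut to its 48417 strongest peaks, 218 members (10.8%, against 2.47% of all regions) had peaks in all CF lists and no WT list. The 244 members with a peak in all lists had a median change of 0.0795, and 140 (57.4%) were higher in CF, compared with a median of −0.182 and 31.7% in windows that neither opened nor closed. A region with a peak in all 7 lists was present in 171 of the 305 windows, and 125 windows held both such a region and one with peaks in all CF lists and no WT list.

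Width, which the rule did not use, was close in members and in all regions. Members had a median width of 550 bp, against 557 bp for all regions, and 7.68% were at most 300 bp wide, against 7.81%. Regions of at least 1500 bp made up 1.29% of members and 1.86% of all regions. Neighbouring members were a median of 9210 bp apart, compared with 7891 bp in windows that neither opened nor closed, and the median window had 6 regions, compared with 7. The number of regions in a window went with how often it opened: 5.97% of windows with 5 regions opened, 4.59% with 6, 1.76% with 10 to 12 and 0.708% with 13 to 30. The shares of windows that closed, with a median of −1 or below, fell in the same way, from 5.7% to 0.708%, as did the SD of the window median, from 0.646 to 0.341.

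Most opening windows stood alone. The 305 windows formed 292 runs of adjoining windows, of which 280 were single, 11 were pairs and 1 was a run of 3. The minimum of 5 regions limits these runs. Of the 539 windows with a region next to an opening window, 301 held fewer than 5 regions and could not be chosen. A single window can therefore be part of a longer opened stretch. The run of 3 lay on scaffold GL896937, from 11201995 to 11470287, and held 20 regions, of which 6 were called more accessible in CF, with window medians from 1.18 to 2.06. A pair on GL896969, from 5906773 to 6093991, had 9 of 16 regions called, and a pair on GL896919, from 2726693 to 2876258, had the highest medians of these pairs, 2.06 and 2.22. In 5 cases an opening window adjoined a closing one.

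Regions beside the opening windows were slightly above the level of the rest. The 238 windows next to an opening window that held at least 5 regions had a median of 0.146 for the window median, and 63.9% were above 0. Windows 2 and 3 places away had 0.0206 and 0.0183, compared with −0.0239 for all windows that did not open. Sparser windows were higher: in windows of fewer than 5 regions the median change of regions was 0.325 next to an opening window and 0.239 at 2 places away, compared with 0.122 in all such windows. Over windows of any number of regions it was 0.181 and 0.0949, compared with 0.0191 for all regions outside the opening windows. Counted by distance, regions 0 to 10 kb outside an edge had a median change of 0.327, those 50 to 100 kb outside had 0.11, those 100 to 200 kb outside had 0.0959 and those 200 to 500 kb outside had 0.014, while regions 0 to 10 kb inside an edge had 1.2 and those 25 to 50 kb inside had 1.25. The drop at the edge is in part fixed by the rule. A neighbouring window with a median of 1 or more would have been taken as well, if it held at least 5 regions. Neighbouring regions deviated together from their genotype mean very little, with a correlation of 0.0639 in CF and 0.0548 in WT over 1713 neighbouring pairs within opening windows, compared with 0.0446 and 0.0654 over 53689 pairs in windows that neither opened nor closed; pairs share their libraries.

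**Figure D4:**
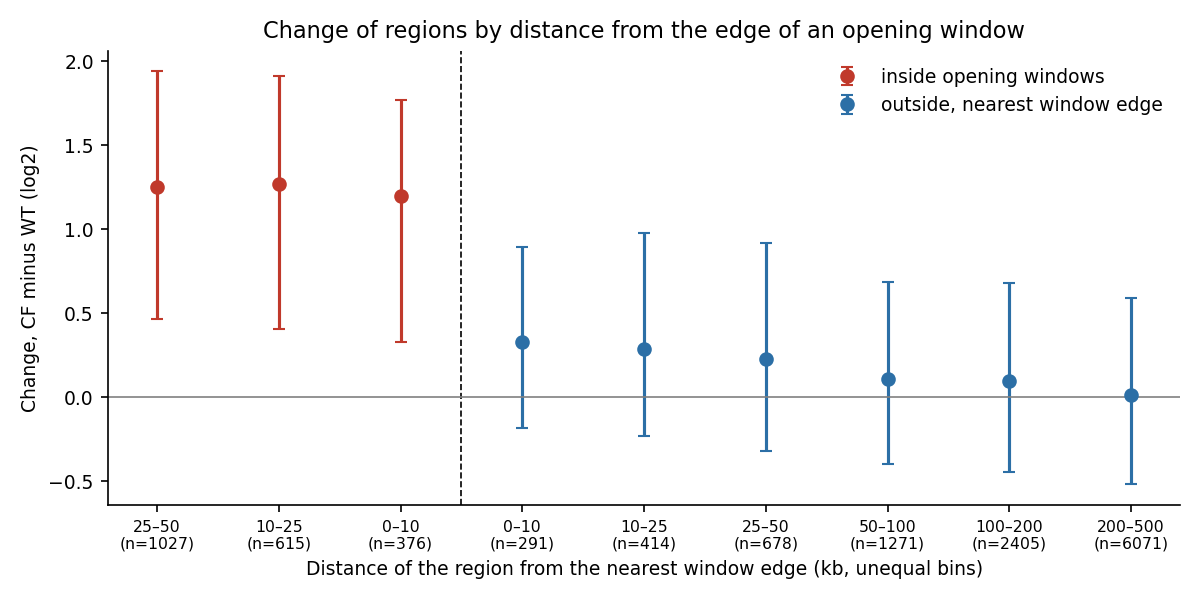
Change of regions, CF minus WT in log2 units, by distance in kb from the nearest edge of an opening window, inside (red) and outside (blue). Points are medians and bars span the quartiles over regions; the median is 1.2 just inside an edge, 0.327 just outside and 0.014 at 200 to 500 kb.

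Which regions were members depended on where the grid was laid. With the grid shifted by 50 kb, 290 windows passed, but they held only 649 (32.2%) of the 2018 members. Where regions were instead followed one by one along a scaffold, 86 unbroken stretches had at least 5 consecutive regions with a change of 1 or more. Of these, 51 touched an opening window, 31 of them crossing a window edge, with a median extent of 60.8 kb and a range from 9.62 to 237 kb.

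The stretch with the most regions lay on scaffold GL897035, from 5032474 to 5238996, over 206.5 kb. It held 12 consecutive regions with changes from 1.69 to 3.95, and all 12 were called more accessible in CF. The median signal of the 12 regions was 59.2, 61.9 and 62.9 in CF1 to CF3 and 5.14, 2.67, 9.23 and 7.54 in WT1 to WT4. CF libraries were alike and all well above the WT libraries, although 2, 3, 4 and 2 of the 12 regions were at 1 read in WT1 to WT4. Only 8 of the 12 were members, in the 2 windows at 5000001 and 5200001, because the window between held 4 regions, with a median change of 3.23, and was too sparse to be chosen. On the left the stretch ended at a region at 5003087 to 5003986 with a change of 0.65 and signals of 90.2, 122.3 and 120.2 in CF and 73.4, 73.7, 58.4 and 75.4 in WT, and beyond it the region at 4991050 to 4991576 changed by 2.64. On the right the next region, at 5292439 to 5292991, changed by 0.86.

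**Figure D5:**
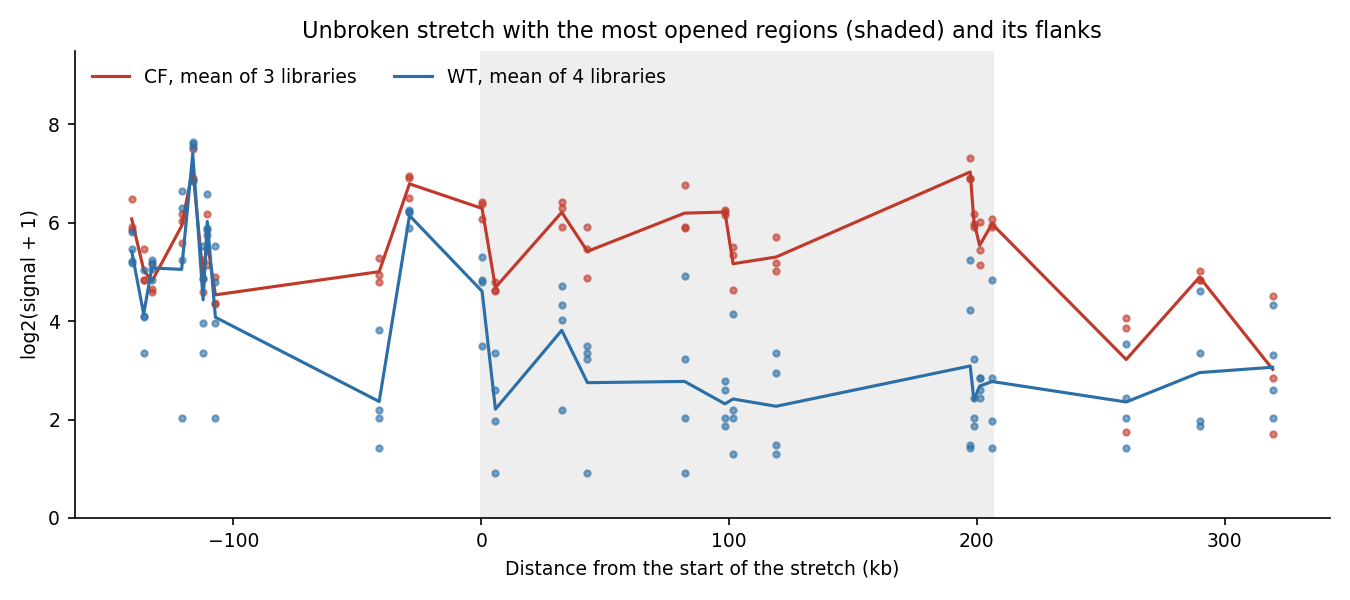
Signal, as log2(signal + 1), of the 12 regions of the unbroken stretch with the most regions (shaded) and of regions up to 150 kb on either side, by distance in kb from the start of the stretch. Points are libraries and lines join the means of the 3 CF and the 4 WT libraries; the CF line is above the WT line at all 12 regions, while the lines cross on both flanks.

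The stretch next in number of regions had 10 consecutive regions, all of them members, on GL897058 from 3021313 to 3074351, within 53.0 kb. Its changes ran from 1.20 to 3.05, and 7 of the 10 were called. A stretch of 9 on GL896955, from 7027960 to 7083311, was also made of members alone, with changes from 1.03 to 3.76 and 4 regions called. A stretch of 8 on GL897166, from 1602254 to 1746999, contained the region of largest change, and 6 of its 8 regions were members.

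Opening windows were spread over many scaffolds. The highest number on 1 scaffold was 6, reached on GL896898, GL896899, GL896914 and GL896931. On GL896931 these were 15.4% of its 39 windows of at least 5 regions, and on GL896898, with 157 such windows, they were 3.82%. Of the 216 scaffolds with at least 10 windows of 5 regions, 89 had no opening window. The 13 of these scaffolds with a median change of −0.3 or below held 5 opening windows among 618 (0.809%) and 83 closing windows.

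The windows closest to the threshold of 1 did not stand apart. The 5 just inside had medians of 1.003, 1.004, 1.004, 1.005 and 1.006, and the 5 just outside had 0.9977, 0.997, 0.9969, 0.9956 and 0.9956. There were 77 windows from 1 to 1.1 and 108 from 0.9 to 1. When each library was left out in turn, 149 of the 305 windows stayed at 1 or more in all 7 cases. The fewest stayed without WT3, with 212 of 305 windows, and the most without CF3, with 268. When only regions with a mean of at least 30 reads were used, 794 of the 2018 members remained. Of the 2920 windows that then held at least 5 regions, 44 passed the rule, and 26 of these were among the 305.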

How the data were processed

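The deposited matrix held one signal per region and library. Per the study's methods, the authors sequenced read pairs of 150 bp, used Trimmomatic for trimming and Bowtie 2 for alignment to the assembly MusPutFur1.0, called peaks per library with MACS2 and built the matrix with DiffBind. Libraries had 12 PCR cycles. The peak names of the lists contain the word dedup, but how duplicates and the transposase shift were handled is not stated. Each signal was a whole number of reads times 1 factor per library, within 0.001 reads for 100% of values, and the reads were recovered from it. In the deposited peak lists the columns are a score, the fold enrichment (a ratio) and, both as −log10, the p-value and the q-value. The q-value was used to rank and filter peaks, and a peak counted as present where it overlapped a region.

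Genotype was fitted across all 95129 regions with limma 3.58.1 (R 4.3.3, mean trend) on log2(signal + 1), a scale on which fold changes of low regions come out too small, with Benjamini-Hochberg adjustment. P-values rest on the variation between these libraries, which may be technical. On the recovered reads, edgeR 4.0.16 called 5143 regions more and 6948 less accessible, and DESeq2 1.42.0 called 5141 and 8142. Other scalings, pseudocounts, filters, grids and each library left out in turn were also tried. Windows, members and named windows were chosen with earlier results of these data known. The named windows are the 12 with the largest median change and the 6 with the most regions, with the regions of largest and smallest change in each; the runs, stretches and scaffolds named beside them were chosen after their values were seen. Closing windows are those with a median of −1 or below. Positions are counted from 1. No sequence or annotation of MusPutFur1.0 was used here, so no gene is named. Python 3.11.15, numpy 2.4.6, pandas 2.3.3 and matplotlib 3.10.9 were used.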

Additional observations from a re-analysis of the deposited data

Results flagged for a closer look

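Among the 58 sets of 4 WT values searched, 7 had 1 library standing apart from the other WT libraries by Dixon's criterion, and chance flags about 1 in 20. The median log2(signal + 1) of members was 3.35 in WT3 and 3.83 to 3.85 in the other WT libraries, and the median of members relative to all regions was −1.49 in WT3 and −1.03 to −0.949 in the others. WT3 was the shallowest library. The region of largest change in the window of GL897026 at 4600001 was at 1.42 in 1 WT library and at 3.06 to 3.35 in the others, on the log2(signal + 1) scale used for the following regions too. The low value was WT4 at 1 read, the smallest value of the matrix. The region of largest change in the window of GL897035 at 5000001 was at 0.92 in WT2, again 1 read, and at 3.23 to 3.49 in the others. The region of smallest change in that window was at 5.89 against 6.22 to 6.26. The region of smallest change in the window of GL896989 at 5700001 was at 5.23 against 5.89 to 5.97. The region of largest change in the window of GL896903 at 23700001 was at 3.35 in 1 WT library and at 1.30 to 1.47 in the others. These values stood for 3 reads in WT3 and for 1 or 2 reads in the others.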

How the results depend on the processing

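The number of opening windows depended on scaling, depth and grid. From 305 windows with 2018 regions, the rule gave 783 windows with 5438 regions with library size alone, 494 with 3310 with upper-quartile scaling, 159 with 1052 with a pseudocount of 4, 44 with 255 among regions of at least 30 reads, 70 with 663 where at least 8 regions were required and 80 with 492 at a threshold of 1.5. There were 220 windows of 50 kb, with 1276 regions. Fewer windows could pass in 3 of these settings: 2920 with the read filter, 3737 with at least 8 regions and 5666 of 50 kb, against 8338. The shares that passed were 1.51%, 1.87% and 3.88%, against 3.66%. With the other settings, which were a pseudocount of 0.5, TMM, DESeq2 size factors, thinned reads, scaffold centring, the shifted grid, windows of 200 kb and the mean change, the windows numbered 237 to 349. Leaving out 1 library gave 278 to 371 windows with 1819 to 2408 regions. Library size alone moved the median change of all regions from 0.0334 to 0.376, that of members from 1.25 to 1.58 and that of regions in the first bordering windows from 0.181 to 0.522, and other scalings moved the median of all regions to at most 0.21. The 2018 members and the named windows were followed only over the scalings, thinned reads, pseudocounts, scaffold centring and left-out libraries. They were not followed over the read filter, the other grids, the minimum of 8 regions or the mean change. Over the settings followed, members higher in CF numbered 1666 to 1844. The 12 windows with the largest change stayed at 1 or more in all 180 values from these settings, the lowest being 1.57. Among the 6 with the most regions 5 values fell below 1, for GL896991 at 300001 (0.786 without WT1), GL896913 at 7200001 (0.862 without WT3, 0.967 without CF2, 0.969 with a pseudocount of 4) and GL896903 at 23700001 (0.908 without WT1).

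Regions called more and less accessible numbered 7688 and 3436 with library size alone, 2049 and 3375 among regions of at least 30 reads, 2708 and 2818 past a log2 change of 2, and 6580 and 7582 with limma-voom. Among regions of at least 30 reads 284 of the 794 members tested were called more accessible, compared with 2049 of all 43789 regions tested. Leaving out 1 library gave 1365 to 5094 and 3765 to 6923 regions and 218 to 620 members. With lists cut to equal numbers of peaks 218 members (10.8%, against 2.47% of all regions) had peaks in all CF lists and no WT list. Without 1 list 366 to 568 members did. Same-numbered libraries of both genotypes correlated at 0.078, 0.071 and −0.022 in their deviations, so the numbers were not taken to pair the libraries; with the replicate block the fit, without WT4, called 5002 and 6325 regions, and 597 members as more accessible. Causes were not tested, except where fewer regions or libraries entered by construction. A single read is the smallest value of the matrix, which limits how low a WT signal can be shown.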

Other observations

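Of the 86 unbroken stretches of at least 5 regions with a change of 1 or more, 35 held no region of an opening window. The one with the most regions lay on scaffold GL896910 from 21085874 to 21481932, with 8 regions over 396.1 kb and changes from 1.95 to 3.16, of which 7 were called more accessible in CF. The windows it crosses hold 1 to 4 regions each, under the 5 that the rule requires. Its median signal was 25.9, 29.5 and 30.6 in CF1 to CF3 and 4.40, 3.11, 3.08 and 1.68 in WT1 to WT4, so all CF libraries were above all WT libraries. In WT3 and WT4 the median stood for 1 read. This stretch was chosen after its values were seen.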
